A study of Mus musculus with 6 samples.

Results

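Lag3, Pdcd1, Ctla4 and Tigit, 4 of the 854 genes in the deposited table, encode the inhibitory receptors LAG-3, PD-1, CTLA-4 and TIGIT, and were taken by their gene symbols. They were read in CD8 T cells from Themis conditional knockout (cKO) and wild-type (WT) mice. All 4 messenger RNAs were lower in every cKO library than in any WT library, as were 75.7% of the 794 genes tested. Lag3 stood apart, 16.9-fold lower in cKO, while Pdcd1, Ctla4 and Tigit were 3.82-fold, 2.70-fold and 2.21-fold lower. These values take both genotypes at equal depth. Under scalings that centre the selected table on itself, Lag3 stayed lower, the calls of Pdcd1 and Ctla4 ended and Tigit turned sign.

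Both genotypes carried the OT-I transgene, which gives CD8 T cells a T-cell receptor (TCR) for an ovalbumin peptide. Naive OT-I cells of spleen and lymph nodes were Themis cKO (3 libraries) or WT (3 libraries), and each culture was kept in IL-2 at 1 µg/ml for 3 days before sequencing. Themis works in TCR signalling of T-lineage cells; the sources used here give neither the Cre line behind its conditional allele nor the age of the mice. Nothing states that replicates were separate mice or wells, so p-values reflect the scatter of these libraries, possibly a technical one.

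Inhibitory receptors are surface proteins that dampen T-cell activation. Naive T cells carry little of them, TCR stimulation induces them, and they then limit further signalling, while persistent expression of several together is known from exhausted CD8 T cells. PD-1 recruits the phosphatase SHP-2 through its cytoplasmic tail when it binds PD-L1 or PD-L2. CTLA-4 takes CD80 and CD86 away from the costimulatory receptor CD28. LAG-3 binds MHC class II and also FGL1, and TIGIT competes with the activating receptor CD226 for the nectin-like ligand CD155, the product of Pvr.

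The receptors lie at separate places in the genome. On build GRCm38.p6, Pdcd1 (Gene ID 18566) spans chr1:94038305-94052553 on the minus strand and Ctla4 (Gene ID 12477) chr1:60909025-60915832 on the plus strand. Lag3 (Gene ID 16768) spans chr6:124904359-124912434 and Tigit (Gene ID 100043314) chr16:43626137-43665125, both on the minus strand. In GENCODE M21, on the same build, the longest coding transcript has 5 exons and 1930 bases for Pdcd1, 4 exons and 1933 bases for Ctla4, 8 exons and 2001 bases for Lag3, and 4 exons and 919 bases for Tigit.

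The promoters are shown as background, because factors of TCR and interferon signalling are known to bind such regions. A link between these sequences and the receptor levels was not tested. RefSeq promoter windows of GRCm38.p6, from 250 bases before to 50 after the start on the gene's own strand, were matched for Pdcd1, Ctla4 and Tigit but not Lag3. Capitals mark matches to GGAAA, the core that NFAT factors bind, read on either strand, and to TATAAA; no matches overlapped. The windows are chr1:94052504-94052803 for Pdcd1, chr1:60908775-60909074 for Ctla4 and chr16:43664135-43664434 for Tigit. The Tigit window lies inside the gene span given above, because its start site is 941 bases inward of that span's outer end; for Pdcd1 and Ctla4 the 2 positions coincide.
Pdcd1: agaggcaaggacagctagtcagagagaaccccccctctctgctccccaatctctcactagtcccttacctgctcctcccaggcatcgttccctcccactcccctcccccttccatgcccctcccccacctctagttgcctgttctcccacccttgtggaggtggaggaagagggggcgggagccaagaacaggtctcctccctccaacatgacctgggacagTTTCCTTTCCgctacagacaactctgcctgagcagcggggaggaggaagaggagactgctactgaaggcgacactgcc
Ctla4: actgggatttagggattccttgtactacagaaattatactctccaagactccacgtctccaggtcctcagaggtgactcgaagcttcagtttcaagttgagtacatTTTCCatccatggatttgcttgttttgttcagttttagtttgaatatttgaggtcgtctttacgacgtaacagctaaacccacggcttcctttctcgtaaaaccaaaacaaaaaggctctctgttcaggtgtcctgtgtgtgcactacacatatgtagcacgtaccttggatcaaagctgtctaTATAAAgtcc
Tigit: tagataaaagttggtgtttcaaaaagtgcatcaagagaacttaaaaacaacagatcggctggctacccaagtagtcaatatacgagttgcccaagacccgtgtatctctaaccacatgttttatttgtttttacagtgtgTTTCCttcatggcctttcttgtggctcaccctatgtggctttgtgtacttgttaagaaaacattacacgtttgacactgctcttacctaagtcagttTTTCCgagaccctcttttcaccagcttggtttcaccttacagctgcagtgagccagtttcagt

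GGAAA matched 2 times in the Pdcd1 window, 1 time in that of Ctla4 and 2 times in that of Tigit, and 61.3% of all 32851 windows hold it. TATAAA matched in the Ctla4 window, beginning 40 bases after the start site, and 13.6% of all windows hold it at any position. The AP-1 motif TGANTCA (7.81% of windows), the interferon-stimulated response element (3.44%) and the NR4A motif AAAGGTCA (1.51%), each read on both strands, matched in none of the 3. These are letters in a short window and not measured binding. The Pdcd1 window was 60.7% G and C, against 42.0% for Ctla4, 41.3% for Tigit and a median of 52.7% over all windows.

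The deposited table is a selection. Its log2 ratios of mean counts leave an empty stretch, from -0.94 to 1.06, so it holds genes that differed about 2-fold or more on these same libraries, and depths over all genes are not used here. Its counts summed to 424606 to 437437 in the cKO libraries and 946766 to 1054442 in the WT libraries. Themis itself fell to 1140 ± 141 scaled counts in cKO, against 5423 ± 420 in WT (mean ± SD, n = 3 each), a log2 fold change of -2.25. Scaled counts are estimated read counts divided by a factor per library, with both genotypes taken at equal depth. The defining markers of CD8 T cells (Cd3e, Cd3d, Cd3g, Cd8a, Cd8b1 and Trac) were not among the genes analysed here, so the labelled cell type could not be checked against them. In such bulk libraries, fewer cells that carry a transcript and less of it per cell cannot be told apart.

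Lag3 had 14.1, 15.5 and 11.8 scaled counts in cKO libraries 1 to 3, against 180, 245 and 277 in WT libraries 1 to 3. The lowest WT library was thus far above every cKO library. The means were 13.8 ± 1.88 in cKO and 234 ± 49.5 in WT (SD, n = 3 each). The log2 fold change was -4.05 with a standard error (SE) of 0.24 (Benjamini-Hochberg adjusted p = 1.84e-07, quasi-likelihood test of edgeR). Only 41.5 deposited reads in all lay behind the cKO value, against 707 in WT, and counting error alone puts the ratio of WT to cKO reads at 12.6 to 24.2 (exact 95% Clopper-Pearson interval).

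Pdcd1 had the fewest reads of the 4 genes in WT. It had 15.1, 38.4 and 21.2 scaled counts in cKO libraries 1 to 3, against 88.0, 104 and 93.1 in WT libraries 1 to 3. The WT libraries were close together, while cKO library 2 stood above the other two cKO libraries, still well under any WT library. The means were 24.9 ± 12.1 in cKO and 95.1 ± 8.32 in WT, a log2 fold change of -1.93 (SE 0.31, edgeR adjusted p = 0.000181). Without cKO library 2 it was -2.39, and without cKO library 1 it was -1.66. The counting interval of the ratio of WT to cKO reads was 2.95 to 4.99, on 75 reads in cKO and 286 in WT.

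Ctla4 was the most heavily counted of the 4 genes. It had 186, 239 and 252 scaled counts in cKO libraries 1 to 3, against 529, 646 and 652 in WT libraries 1 to 3. Every WT library held more than 2-fold the count of the highest cKO library. The means were 226 ± 35.0 in cKO and 609 ± 69.6 in WT, a log2 fold change of -1.43 (SE 0.16, edgeR adjusted p = 1.48e-05). The counting interval of the WT to cKO ratio was 2.48 to 2.96.

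Tigit changed least. It had 124, 136 and 76.0 scaled counts in cKO libraries 1 to 3, against 246, 202 and 297 in WT libraries 1 to 3. The groups did not overlap, and cKO library 3 was lowest. The means were 112 ± 31.9 in cKO and 248 ± 47.6 in WT, a log2 fold change of -1.15 (SE 0.23, edgeR adjusted p = 0.000901). Without cKO library 3 it was -0.92, and without WT library 3 it was -0.96. The estimated counts of Lag3 and Tigit are not whole, so some of their reads were shared out with other features by the authors' counting, whereas those of Pdcd1 and Ctla4 are whole in every library.

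**Figure D1:**
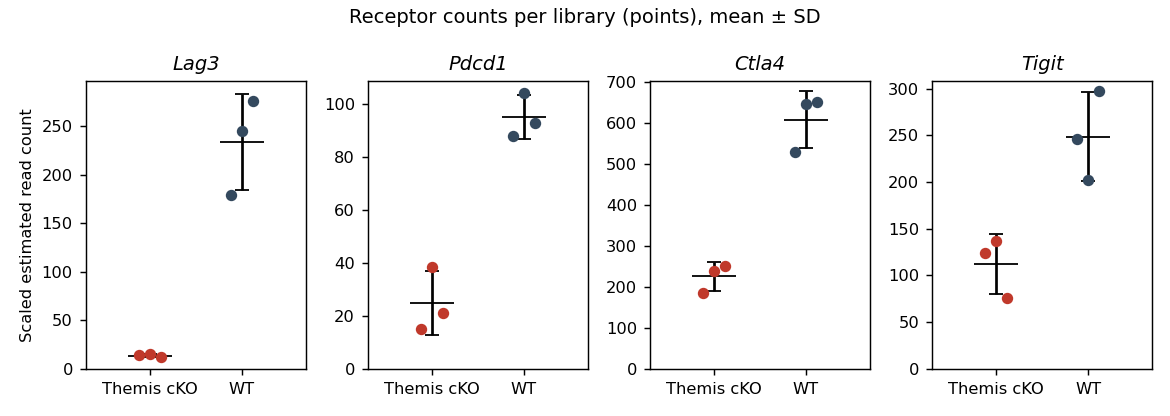
Scaled estimated read counts (vertical axis, from 0) of Lag3, Pdcd1, Ctla4 and Tigit in the Themis cKO (left) and WT (right) libraries, 3 points each, with mean and SD. In each panel all 3 cKO points lie under all 3 WT points, and the Lag3 cKO mean of 13.8 lies closest to 0 relative to its WT mean of 234.

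All 4 receptors passed an adjusted p of 0.05, but so did 100% of the 794 genes with enough counts to test, and 75.8% of those were lower in cKO. Non-overlap with cKO lower, seen for all 4, held for 75.7% of tested genes. Passing is therefore no result about the receptors, and the sizes carry the description. Their median log2 fold change was -1.68, beside -1.34 over all tested genes, the higher ones included. Tmem140, at rank 303 of the 602 lower genes, stood at -1.62. Among the 602 lower genes Lag3 ranked 29, with 4.65% falling further, Pdcd1 ranked 220, Ctla4 361 and Tigit 477.

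The authors' deposited table gives smaller log2 values for the same contrast, -3.31 for Lag3, -1.45 for Pdcd1, -1.18 for Ctla4 and -0.74 for Tigit. Its q-value was 0.00142 for Lag3 and 0.0167 for Pdcd1. It was 0.104 for Ctla4 and 0.310 for Tigit. By the authors' test 2 of the 4 thus passed a q of 0.05, as did 67.6% of the table. The order of the 4 genes by size was the same in both sets of values. Among genes described below, 4 of 6 other inhibitory receptors, 2 of 6 ligands and 3 of 5 costimulatory genes passed the authors' q. So did 10 of 16 transcription factors and 6 of 6 NK markers, but 0 of 3 B cell markers. In the other marker lists 1 of 2 gamma-delta T cell and 1 of 2 CD4 and regulatory T cell markers passed. So did 1 of 2 plasmacytoid dendritic cell and 2 of 2 myeloid markers.

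In the fits made here, the direction of the smaller changes rests on the depth assumption. The authors' deposited log2 values were also negative for Pdcd1 (-1.45), Ctla4 (-1.18) and Tigit (-0.74). TMM, DESeq2 size factors and the DESeq2 test, here called self-centring scalings because they centre this selected table on itself, moved the median log2 fold change of all genes by 1.29 to 1.30. Lag3 then stayed lower in cKO, at -2.77 to -2.75 (edgeR and DESeq2 adjusted p of 2.47e-16 to 6.69e-06). The calls of Pdcd1 (-0.64 to -0.62, adjusted p of 0.113 to 0.141) and Ctla4 (-0.14 to -0.12, adjusted p of 0.492 to 0.536) ended, and Tigit turned to 0.14 to 0.16 (adjusted p of 0.584 to 0.672). Under all other alternatives the 4 calls held, at adjusted p of up to 0.00387 for Pdcd1, 0.000316 for Ctla4, 1.24e-05 for Lag3 and 0.0193 for Tigit (edgeR and limma-voom). The empty fold interval is centred on a log2 value of 0.06, a factor of 1.04, and centring it on 0 gave -4.11 for Lag3, -1.99 for Pdcd1, -1.49 for Ctla4 and -1.21 for Tigit.

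**Figure D2:**
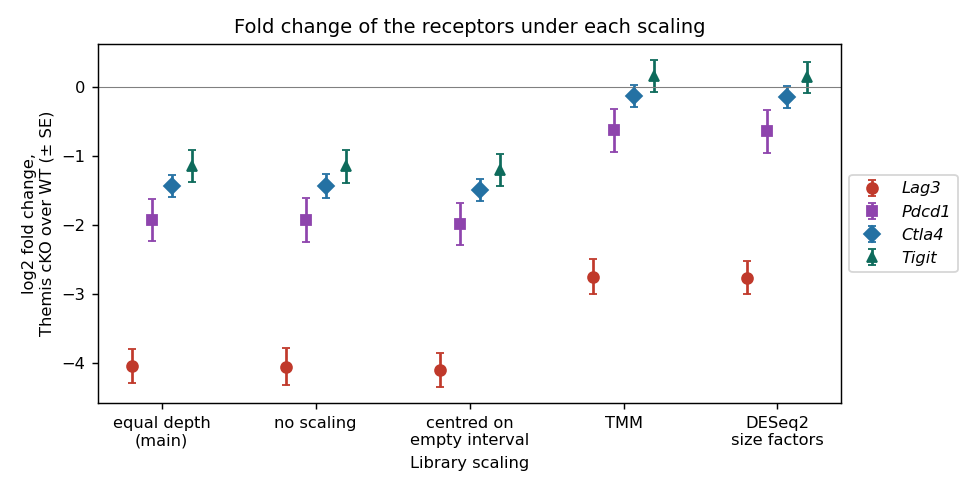
Log2 fold change of each receptor, Themis cKO over WT, with its SE (vertical axis) under 5 library scalings (horizontal axis). Lag3 stays at or under -2.75 throughout, while TMM and DESeq2 size factors move Tigit to 0.16 and 0.15.

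Ratios between receptors inside a library do not depend on depth, and they differed most between genotypes where Lag3 was involved. The log2 ratio of Lag3 to Tigit, on counts plus 1, was -3.05, -3.06 and -2.59 in cKO libraries 1 to 3, against -0.45, 0.28 and -0.10 in WT libraries 1 to 3. Its mean difference, cKO minus WT, was -2.81 (SE 0.26), a 6.99-fold change in the balance of the pair. For Lag3 to Ctla4 the difference was -2.54 (SE 0.22) and for Lag3 to Pdcd1 -1.98 (SE 0.37). In these 3 pairs the genotypes did not overlap, and the exact two-sided permutation p was 0.1, the smallest that 3 against 3 libraries allow (0.15 adjusted over the 6 pairs).

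Among the other 3 receptors the differences were smaller. The log2 ratio of Pdcd1 to Tigit averaged -2.19 ± 0.67 in cKO and -1.36 ± 0.37 in WT, a difference of -0.82 (SE 0.44, exact permutation p = 0.1, adjusted 0.15), and the groups did not overlap. That of Pdcd1 to Ctla4 differed by -0.56 (SE 0.31, exact permutation p = 0.3, adjusted 0.36) and that of Ctla4 to Tigit by -0.27 (SE 0.39, exact permutation p = 0.6), both with overlapping libraries. A p above the threshold does not show that these balances were equal, and with this number of libraries no pair could pass 0.05.

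**Figure D3:**
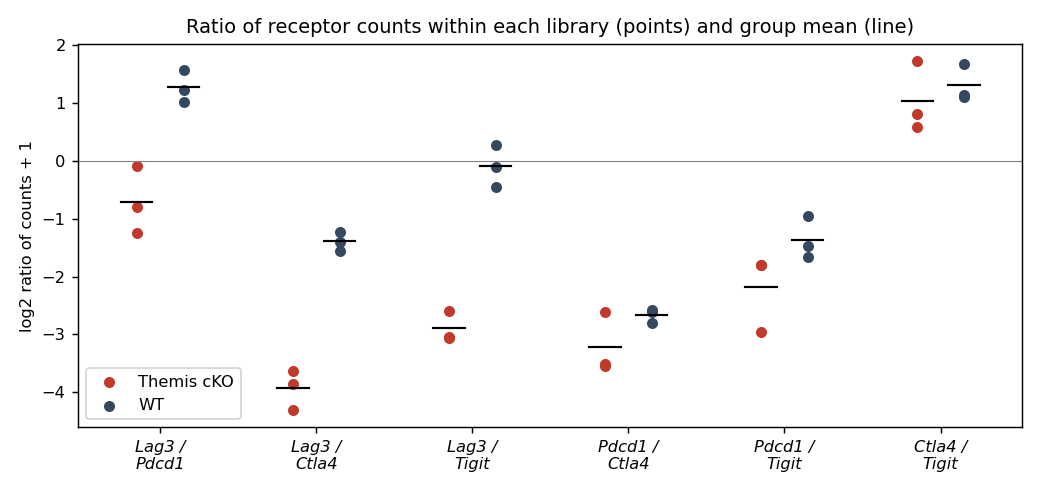
Log2 ratio of the counts plus 1 of 2 receptors in the same library (vertical axis) for the 6 pairs, with Themis cKO points left of WT points and a line at each mean. The genotypes separate most in the 3 pairs with Lag3, by -1.98 to -2.81, and overlap for Pdcd1 to Ctla4 and Ctla4 to Tigit.

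Levels were then compared between genes as scaled reads per kilobase of the longest GENCODE coding transcript. In cKO the order from the top was Tigit (122 ± 34.7) and Ctla4 (117 ± 18.1), then Pdcd1 (12.9 ± 6.25) and Lag3 (6.90 ± 0.94; SD, n = 3). In WT it was Ctla4 (315 ± 36.0), Tigit (270 ± 51.8), Lag3 (117 ± 24.7) and Pdcd1 (49.3 ± 4.31; SD, n = 3). Lag3 was thus above Pdcd1 in all 3 WT libraries and below it in all 3 cKO libraries, though in cKO library 1 the levels were 7.05 for Lag3 and 7.83 for Pdcd1. Ctla4 and Tigit had overlapping ranges in each genotype, and their order depends on the transcript length taken for each gene.

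The summed length-adjusted level of the 4 receptors was 259 ± 36.4 in cKO and 752 ± 87.2 in WT (SD, n = 3 each). Lag3 made up 2.67% ± 0.17 of that sum in cKO and 15.4% ± 1.90 in WT. Pdcd1 made up 4.86% ± 1.73 in cKO and 6.61% ± 0.86 in WT, with overlapping libraries. Ctla4 and Tigit together held the remainder. Ctla4 stood at 45.7% ± 9.60 in cKO and 42.0% ± 3.27 in WT. Tigit stood at 46.8% ± 9.74 in cKO and 35.9% ± 5.12 in WT. The libraries of the genotypes overlapped for both of these shares.

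**Figure D4:**
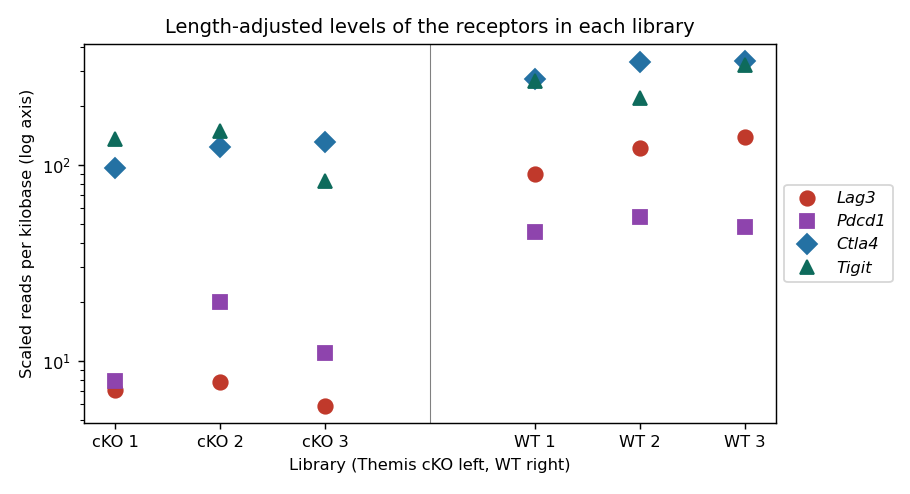
Scaled reads per kilobase of transcript (log axis) of each receptor in the 3 Themis cKO libraries (left) and the 3 WT libraries (right). Lag3 lies above Pdcd1 in each WT library and below it in each cKO library, while Ctla4 and Tigit lie at the top in both genotypes.

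Each receptor had its own closest companions in the table. Likeness was the root-mean-square difference of centred log2 profiles over the 6 libraries, among 524 tested genes with a mean of at least 50 scaled counts, and it includes the genotype difference itself. Closest to Lag3 were Ifit3 (0.14), an interferon-induced antiviral protein, Ccrl2 (0.14), an atypical chemoattractant receptor, and Oas2 (0.16), an interferon-induced sensor of double-stranded RNA. Ifit3 had 519 ± 25.2 scaled counts in cKO and 8446 ± 809 in WT, a log2 fold change of -4.02, beside -3.89 for Ccrl2 and -3.94 for Oas2.

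Closest to Pdcd1 were Phlda1 (0.22), Spry1 (0.26), a feedback inhibitor of receptor signalling to ERK, and Lmtk3 (0.31). Their log2 fold changes were -1.86, -2.03 and -1.91. Closest to Ctla4 were Basp1 (0.080), Tagap (0.11), a GTPase-activating protein of activated T cells, and Tmem140 (0.11), with log2 fold changes of -1.34, -1.50 and -1.62. Closest to Tigit were Zfp768 (0.13), Gfi1 (0.14), a transcriptional repressor in lymphocytes, and Ifi27l2a (0.14), an interferon-induced gene, with log2 fold changes of -0.95, -1.22 and -1.35. Pdcd1 was the least closely matched of the 4. Zfp768 and Gfi1 turned sign under the self-centring scalings, where the calls of Phlda1, Basp1, Tagap, Tmem140 and Ifi27l2a ended.

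Of the 24 other inhibitory receptors listed, 6 were in the table, 4 lower and 2 higher in cKO, beside 75.8% lower among all tested genes. The median of their log2 fold changes was -1.10, beside -1.34 over all tested genes. The lower ones were Cd5 (-1.61), which tunes TCR signalling, Lilrb4a (-1.51), an inhibitory immunoglobulin-like receptor, Adora2a (-1.11), a receptor for adenosine, and Cd101 (-1.09). Adora2a and Cd101 turned sign under the self-centring scalings and the calls of Cd5 and Lilrb4a ended there. The authors' deposited log2 values were -1.77 for Cd5 (q-value 1.31e-34) and -0.99 for Lilrb4a (q-value 0.239). They were -0.91 for Adora2a (q-value 0.00459) and -0.92 for Cd101 (q-value 0.0710). Pvrig, which like TIGIT recognises a nectin family ligand, was higher, with 67.9 ± 6.74 scaled counts in cKO and 30.9 ± 8.53 in WT, a log2 fold change of 1.14. Cd200r1, the receptor for CD200, had 124 ± 9.20 in cKO and 58.4 ± 7.62 in WT, a log2 fold change of 1.09. The log2 fold changes of Pvrig and Tigit thus had opposite signs, except under the self-centring scalings.

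Of 15 listed ligands of the 4 receptors, 6 were in the table, 5 lower and 1 higher in cKO, again beside 75.8% lower among all tested genes. Cd274, which encodes PD-L1, had 1953 ± 158 scaled counts in cKO and 3790 ± 298 in WT, a log2 fold change of -0.96. It turned sign under the self-centring scalings, and the authors' deposited log2 value was -0.62 (q-value 0.456). Pvr, the TIGIT ligand, stood at -1.39, with 228 ± 37.4 scaled counts in cKO and 597 ± 74.9 in WT. Cd80, a CTLA-4 ligand, had 8.37 ± 5.23 in cKO and 38.4 ± 6.56 in WT, a log2 fold change of -2.19. Nectin4 (-2.52), known as a TIGIT ligand in human, rested on 7.24 reads in cKO and 42.0 in WT. The MHC class II genes, ligands of LAG-3, went opposite ways, with H2-Ab1 at -1.73 and H2-Eb1 at 1.67. Single libraries weighed on these low counts: without cKO library 3 Cd80 stood at -2.78 and Nectin4 at -3.12, and without WT library 3 H2-Eb1, whose genotypes overlapped, stood at 2.31. The calls of Pvr, Cd80, Nectin4 and H2-Ab1 ended under the self-centring scalings.

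Of 18 costimulatory receptors and partners, the table held 5, each of them lower in cKO, as were 75.8% of all tested genes. Tnfsf14, which encodes the ligand LIGHT, fell most, to 75.2 ± 18.6 scaled counts in cKO, against 744 ± 27.3 in WT, a log2 fold change of -3.30. Tnfrsf9, the receptor 4-1BB, stood at -1.42 and its ligand Tnfsf9 at -1.69, and both calls ended under the self-centring scalings. Tnfsf4, the ligand of OX40, stood at -1.21 and Tnfsf8, the ligand of CD30, at -1.14, and both turned sign there. The authors' deposited log2 values were -0.80 for Tnfsf4 (q-value 0.239) and -0.96 for Tnfsf8 (q-value 0.000532). Cd28, Icos and Cd226 were on the list and were not among the genes analysed here. Of 26 signalling and trafficking partners of the receptors, 2 were in the table. Sla, an adaptor that limits TCR signalling, stood at -1.27 and turned sign under the self-centring scalings. Pag1, an adaptor that brings the kinase Csk to the membrane, stood at 1.33. The authors' deposited log2 values were -1.19 for Sla (q-value 2.37e-11) and 0.76 for Pag1 (q-value 0.170).

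Of 36 transcription factors known to act on such receptors or on T-cell activation, 16 were in the table, 15 lower and 1 higher in cKO, beside 75.8% lower among all tested genes. The median of their log2 fold changes was -1.91, beside -1.34 over all tested genes, and 4 turned sign under the self-centring scalings. The orphan receptors Nr4a2, Nr4a3 and Nr4a1, induced by TCR signals and high in exhausted T cells, stood at -3.48, -3.05 and -2.25. Egr2 (-2.97) and Egr3 (-2.54), also TCR-induced, Irf4 (-2.36) and Nfil3 (-2.14) fell more than Pdcd1, Ctla4 or Tigit by their point values. Jun, a subunit of AP-1, stood at -1.45, and its call ended under the self-centring scalings. Tcf7, which encodes a factor of naive and memory T cells, was the higher gene, at 1.53, and is named after its values were seen. The authors' deposited log2 value for Tcf7 was 0.68, with a q-value of 0.456. Of 9 surface activation markers, Cd69 (-1.94) and Cd6 (-1.71) were in the table, and both were lower also under the self-centring scalings.

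**Figure D5:**
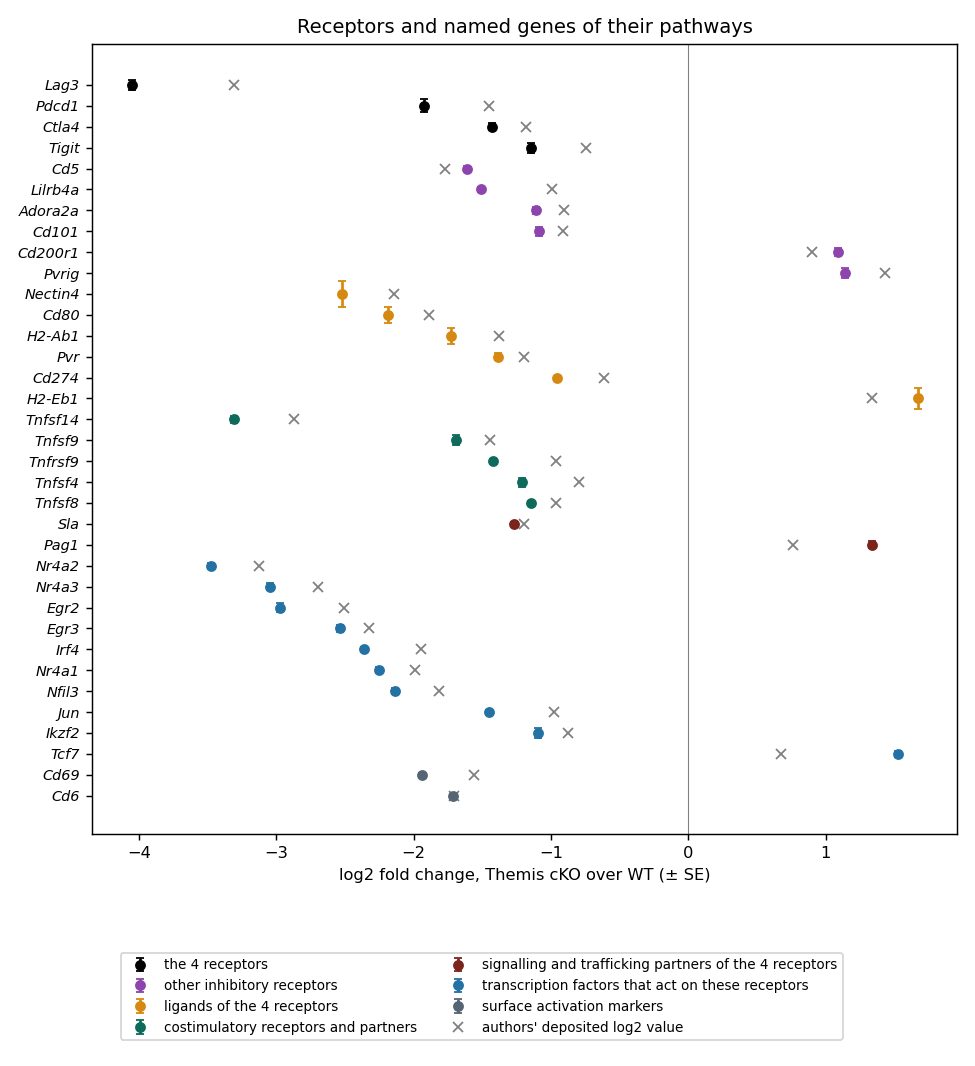
Log2 fold change, Themis cKO over WT, with its SE (horizontal axis) for the 4 receptors (top, black) and the named genes of the pathway lists, cell type markers left out (coloured by list), beside the authors' deposited log2 value (grey crosses). Lag3 lies furthest left at -4.05, and Pvrig, Cd200r1, H2-Eb1, Pag1 and Tcf7 lie right of 0.

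The immediate gene neighbourhoods were little represented. Within 250 kb of Pdcd1 and of Ctla4, where RefSeq has 8 and 2 other protein-coding genes, none was in the table. Of 28 near Lag3 there was 1, the glycolytic enzyme gene Tpi1 (90.2 kb away, -1.38), and of 4 near Tigit there was 1, Ccdc191 (225 kb away, -1.27). The call of Tpi1 ended and Ccdc191 turned sign under the self-centring scalings. The authors' q-value was 9.47e-16 for Tpi1 and 0.00136 for Ccdc191.

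The table also held markers of other cell types. Being in this selected table, each already differed about 2-fold or more, so only their direction and size are described. NK cells can express Tigit and Lag3, and of 8 NK markers the table held 6, each of them higher in cKO, as were 24.2% of all tested genes. Their summed level was 1255 to 2269 scaled counts in cKO and 478 to 770 in WT. Across cKO libraries 1 to 3 that sum was 2269, 1558 and 1255, while Tigit was 124, 136 and 76.0. Any link between them was not tested, nor was whether NK cells were the source of these markers. By smallest p the 6 were Klrb1c (1.23), Ncr1 (1.62), Tyrobp (1.60), Fcer1g (1.53), Klra8 (1.38) and Klra9 (1.12). Klra8 and Klra9 belong to a family of near-identical genes and their estimated counts are not whole, so their separate values are uncertain.

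Regulatory T cells express Ctla4 and Tigit. Of 6 CD4 and regulatory T cell markers, 2 were in the table and split, with Ikzf2 at -1.09 (turning sign under the self-centring scalings) and Tnfrsf25 at 1.23. Their sum was 120 to 288 scaled counts in cKO and 321 to 352 in WT. Foxp3 and Cd4 were not among the genes analysed here. Of 6 markers of plasmacytoid dendritic cells, which can express Lag3, 2 were in the table and split. Bst2 stood at -1.28 (turning sign under the self-centring scalings) and Ccr9, which T cells also express, at 2.95. Bst2 averaged 1862 scaled counts in cKO and 4530 in WT, and Ccr9 1779 in cKO and 230 in WT. Their sums were 3483 to 3859 in cKO and 4699 to 4846 in WT. Of 8 myeloid markers 2 were in the table and split, Mpeg1 being lower (-2.91) and Itgax higher (1.28). Their sums were 164 to 271 in cKO and 387 to 492 in WT. The sum of each split pair adds opposite changes, so it gives no direction for the cell type. Of 6 gamma-delta T cell markers 2 were in the table, Blk (2.18) and Sox13 (1.28), both higher in cKO, as were 24.2% of all tested genes. Their sums were 76.5 to 165 in cKO and 29.5 to 57.2 in WT. The authors' q-value was 0.0656 for Blk and 0.000766 for Sox13. Across cKO libraries 1 to 3, Blk had 16.1, 39.4 and 59.6 scaled counts and Sox13 60.4, 126 and 65.6. The B cell marker Ms4a1 had 16.1, 59.0 and 87.8 there. Of 6 B cell markers 3 were in the table, each of them higher in cKO, as were 24.2% of all tested genes. Among them were Cd79b (1.36, authors' q-value 0.171) and Ms4a1 (1.51, authors' q-value 0.108). The genotypes overlapped for Ms4a1, whose edgeR adjusted p of 0.0247 became 0.0544 without cKO library 2, 0.124 without cKO library 3, 0.0566 without WT library 1 and 0.0672 without WT library 2. The part of these cells in the receptor levels was not tested.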

How the data were processed

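RNA was extracted with a column kit and sequenced on a DNBSEQ-G400, per the labels' protocols. The authors deposited 1 table of 854 genes with estimated counts per library, 66.1% of them whole, and with their own log2 fold change, p-value and q-value per gene, per the file headers. The genome GRCm38.p6 and the tools RSEM 1.2.12, HISAT2 2.0.4, DESeq2 1.4.5 and Bowtie2 2.2.5 are named, without their roles, per the submitters' processing notes. The strandedness of the counting and the selection of genes are not given in the sources used here.

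Counts were rounded and fitted by genotype alone with the quasi-likelihood test of edgeR 4.0.16 in R 4.3.3. The 794 genes passing its filter (smallest count 10) were tested, with Benjamini-Hochberg adjustment over all of them and calls at 0.05. Library factors were median-of-ratios within each genotype (0.944 to 1.04), both genotypes at equal depth, since the table holds only changed genes. The SE is the size of the log2 fold change over the root of its F statistic. The test was tried on simulated data with known changes. Counting intervals cover counting error only. Table sums are not depths, which are unknown here.

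The receptors, the gene lists and the tests were chosen with earlier results of these data known. Named genes are the receptors, Themis, up to 8 genes of each list or marker list by smallest p, and the 3 genes with the most like pattern for each receptor; Tcf7 and the gene neighbours Tpi1 and Ccdc191 fall outside this rule, and 1 listed gene is not reported here. Alternatives covered scaling, test, filter, adjustment family, leaving out each library and a replicate block, and the scaling on the empty interval was chosen after seeing the data. Same-numbered libraries did not deviate together (r of -0.156 to -0.056), so the numbers were not taken as pairs. The labels give no batch. Other software was matplotlib 3.10.9, scipy 1.17.1, numpy 2.4.6, pandas 2.3.3, Python 3.11.15, DESeq2 1.42.0 and limma 3.58.1.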

Additional observations from a re-analysis of the deposited data

How the results depend on the processing

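The result that depended on the processing was the depth taken for each genotype. Of 794 genes called, 438 were called with TMM, 438 with DESeq2 size factors and 431 with the DESeq2 test; all 3 centre the table on itself and moved the split to 224 higher and 214 lower, 221 and 217, and 224 and 207, against 192 and 602. Under TMM, DESeq2 size factors and the DESeq2 test, in that order, Pdcd1 was -0.62, -0.64 and -0.64, Ctla4 -0.12, -0.14 and -0.14, and Tigit 0.16, 0.15 and 0.14. Over the table, 186 of the 794 tested genes turned sign in at least 1 of the 3. The other named genes that did, with values in that order, were Adora2a (0.20, 0.18 and 0.18), Cd101 (0.22, 0.20 and 0.20), Cd274 (0.35, 0.34 and 0.34), Sla (0.038, 0.024 and 0.024), Ikzf2 (0.22, 0.20 and 0.20), Ccdc191 (0.035, 0.021 and 0.021), Zfp768 (0.36, 0.34 and 0.34), Gfi1 (0.084, 0.070 and 0.070), Tnfsf8 (0.17, 0.15 and 0.15), Tnfsf4 (0.092, 0.078 and 0.079) and Bst2 (0.025, 0.0091 and 0.0091). Under each of them 17 of 65 named genes, receptors included, lost their call with the same sign and 36 kept it. With p-values adjusted over 16996 genes, the number implied by the authors' p and q, 9 of the 65 lost it, namely Nectin4, H2-Eb1, Tnfrsf25, Zfp768, Klra9, Ms4a1, Itgax, Blk and Sox13. With no scaling, centring on the empty interval, no filter and the replicate block, none of the 65 did, and with limma-voom Ms4a1 did (adjusted p = 0.0909).

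Leaving out each library in turn gave -4.25 to -3.88 for Lag3, -2.39 to -1.66 for Pdcd1, -1.56 to -1.30 for Ctla4 and -1.33 to -0.92 for Tigit, and 791 to 793 calls over the table. The replicate block gave -4.04 for Lag3, -1.98 for Pdcd1, -1.44 for Ctla4 and -1.16 for Tigit, and 793 calls; no library correlated best with the library of its own number. The within-library ratios kept their direction with pseudocounts of 0.5 and 5 and with each library left out. The difference for Ctla4 to Tigit was then -0.61 to -0.04. Pairing same-numbered libraries cannot change a mean difference, so it is no check of direction. Depth limits Lag3 and Pdcd1 in cKO most, with 41.5 and 75 reads over 3 libraries.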
